A study of Rattus norvegicus with 4 samples.

Results

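The genes described here are 37 immediate early and activity-regulated genes, chosen by name as genes whose transcription is known to rise within minutes to hours of cell stimulation. All 37 were found among 15443 genes that could be named on a rat expression array, each represented by its brightest probe. RNA came from male rats scored in a forced swimming test, where immobility in water is read as depressive-like behaviour, and tissue was taken 1 week after that test. The groups, with 1 array each, were the cerebellum of rats with depressive-like behaviour (called depressive), the cerebellum of rats with average behaviour (called control), and the prefrontal cortex of depressive and of control rats. All 106 rats scored had swum, controls included, and the labels name no drug, lesion or genotype, so the state is a behavioural class. Each array carried RNA pooled from 4 rats, the labels give neither strain nor age, and no group has a second pool, so differences between states within a tissue describe these pools only and carry no test.

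Immediate early genes need no new protein synthesis to be switched on: calcium entry and kinase cascades act on factors already bound at their promoters, mainly CREB and the serum response factor. Many encode transcription factors that drive a second wave of genes, and others, such as Arc and Homer1, act directly at synapses or shut the signal off. In brain tissue, their RNA levels are widely used as markers of recent neuronal activity, and in unstimulated animals they also report the basal activity of a region. Their transcripts are short-lived, so RNA taken 1 week after the test measures the level at the time of death.

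Values are given as scaled signal, in which 100 is the 75th percentile of the spots of an array, and levels are compared between arrays and never between genes. The 37 genes are measured by 10 spots per array for 8 genes, 2 spots for 26 and 1 spot for 3, and the SE between spots given with some values is technical and holds no spread between rats. Of the 37, 34 were well above background on all 4 arrays, Ptgs2 on 3, Egr2 on 2 and Fosl1 on 1. The tissue labels held in a check of marker genes: 12 cerebellar neuron genes summed to 17816 and 19189 in depressive and control cerebellum, against 527 and 562 in prefrontal cortex, and 12 measured cortical neuron genes to 986 and 1020.0, against 6070.3 and 6549. The scanner files linked to the depressive cerebellum and control prefrontal cortex samples match each other's column in the deposited value table, so each sample was read from the file that its column matches, at a correlation of 0.99989 or more against 0.93278 and 0.93316 for the linked files. Read as linked instead, the tissue and state differences below would exchange places. The control prefrontal cortex sample would then hold the cerebellar neuron sum of 17816 and the depressive cerebellum sample that of 562. All arrays lay on 1 slide, the control arrays at positions 1 and 2 and the depressive arrays at positions 3 and 4, so that slide position and state cannot be told apart.

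Promoter windows of RefSeq (build GRCr8, 250 bases before to 50 after the annotated start) were matched for 28 of the 37 genes and searched on both strands for elements through which immediate early genes are known to be switched on. The cyclic AMP response element TGACGTCA, which CREB binds, was in 5 of the 28 windows (17.9%) and in 1.91% of 27457 rat promoter windows, and its core TGACG, which the full element contains, in 17 (60.7%) and in 22.0%. The CArG box, bound by the serum response factor, was in 4 (14.3%), those of Dusp5, Klf6, Egr1 and Egr2, and in 1.64% of all windows. The AP-1 site TGACTCA and the NR4A site AAAGGTCA were in 0 of the 28, and in 4.53% and 1.29% of all windows. The shares describe letters only, and a window without a match says nothing of the factor. The 5 windows printed here are those of Egr2, Egr4 and Nr4a1, whose signals were higher in prefrontal cortex, and of Dusp5 and Ier2, whose signals were higher in cerebellum, to show that elements of both kinds occur on either side. Capitals mark the matched elements. Egr2 lies at chr20:21054392-21054691, minus strand, with a CArG box beginning 83 bases and a TGACG core 66 bases before the start. Egr4 lies at chr4:119607768-119608067, minus strand, with cores 178 and 110 bases before the start. Nr4a1 lies at chr7:134259888-134260187, plus strand, with 4 cores, 246, 226, 82 and 53 bases before it. Dusp5 lies at chr1:262543524-262543823, plus strand, with CArG boxes 82 and 72 bases and a core 55 bases before the start. Ier2 lies at chr19:40399123-40399422, plus strand, with a full cyclic AMP response element 66 bases before the start.
Egr2: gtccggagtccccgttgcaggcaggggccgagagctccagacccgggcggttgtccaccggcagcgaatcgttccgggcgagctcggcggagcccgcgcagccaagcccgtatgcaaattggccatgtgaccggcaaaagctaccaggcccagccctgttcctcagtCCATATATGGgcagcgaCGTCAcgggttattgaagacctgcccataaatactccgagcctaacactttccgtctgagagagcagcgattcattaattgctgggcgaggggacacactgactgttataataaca
Egr4: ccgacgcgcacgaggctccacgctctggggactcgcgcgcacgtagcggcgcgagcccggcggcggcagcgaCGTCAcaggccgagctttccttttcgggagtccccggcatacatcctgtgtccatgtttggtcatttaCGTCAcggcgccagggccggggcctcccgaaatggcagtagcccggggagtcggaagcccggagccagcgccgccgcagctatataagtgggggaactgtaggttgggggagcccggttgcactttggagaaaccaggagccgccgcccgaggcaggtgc
Nr4a1: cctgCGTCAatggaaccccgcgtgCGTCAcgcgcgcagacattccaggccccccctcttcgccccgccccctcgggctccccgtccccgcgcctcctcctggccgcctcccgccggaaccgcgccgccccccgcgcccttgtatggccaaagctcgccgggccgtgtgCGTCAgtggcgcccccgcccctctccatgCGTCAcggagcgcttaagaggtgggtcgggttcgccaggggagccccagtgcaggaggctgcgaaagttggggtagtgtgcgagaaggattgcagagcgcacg
Dusp5: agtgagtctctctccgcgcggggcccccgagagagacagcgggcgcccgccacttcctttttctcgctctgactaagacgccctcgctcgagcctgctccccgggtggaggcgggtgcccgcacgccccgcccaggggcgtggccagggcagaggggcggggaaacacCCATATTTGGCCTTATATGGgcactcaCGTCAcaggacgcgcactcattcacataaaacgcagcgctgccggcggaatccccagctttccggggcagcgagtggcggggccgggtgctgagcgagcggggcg
Ier2: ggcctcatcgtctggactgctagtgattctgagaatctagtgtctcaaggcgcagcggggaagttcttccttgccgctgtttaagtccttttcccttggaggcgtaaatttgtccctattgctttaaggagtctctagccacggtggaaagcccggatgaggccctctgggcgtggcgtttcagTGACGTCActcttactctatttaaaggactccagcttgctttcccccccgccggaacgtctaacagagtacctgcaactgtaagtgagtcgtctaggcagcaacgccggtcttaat

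The first comparison set the cerebellum against the prefrontal cortex. Most of the genes were lower in cerebellum, among them the EGR factors, Arc, Homer1, Junb, Ier5 and Nptx2, while a smaller group that included Dusp5 was higher there. In a limma fit with tissue and state as terms, in which the depressive and control pools serve as the 2 arrays of a tissue, 22 of the 34 tested genes were lower and 7 higher in cerebellum at an adjusted p under 0.05, and 5 were not called. Tissue differences are the rule on this array: 37.8% of all 11623 genes tested were called lower and 34.7% higher. A count at 2-fold or more in both states, added after that background was seen, held 14 genes that were lower (11.0% of all genes) and 3 that were higher (7.22%). In depressive pools 17 of 34 measured genes were 2-fold or more lower (12.3% of all genes), 4 were 2-fold or more higher (8.22%) and 7 lay above 0 (47.7%), and in control pools the counts were 16 of 35 (12.9%), 3 (8.64%) and 8 (48.7%). The median tissue difference was -0.97 on the log2 scale over 34 genes in depressive pools and -0.90 over 35 genes in control pools, against medians of -0.04 and -0.02 over all genes measured. The fit leaves 1 residual degree of freedom and borrows its spread from all genes, and a gene that misses background on 1 array or more is left out of it. In tissue RNA, fewer cells of a type and less RNA per cell cannot be told apart, and the neuron types of the 2 tissues differ. Markers of non-neuronal cells differed too: the choroid plexus sum was 54.0-fold higher in cerebellum in depressive and 19.2-fold in control pools, and the meningeal fibroblast sum 2.57-fold and 4.62-fold, while the microglia sum was 0.533 and 0.488 of that in prefrontal cortex. Of 10 oligodendrocyte genes, 9 were higher in cerebellum in depressive and 10 in control pools, with median log2 differences of 0.73 and 1.05. The part of these cells in the tissue differences was not tested.

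**Figure D1:**
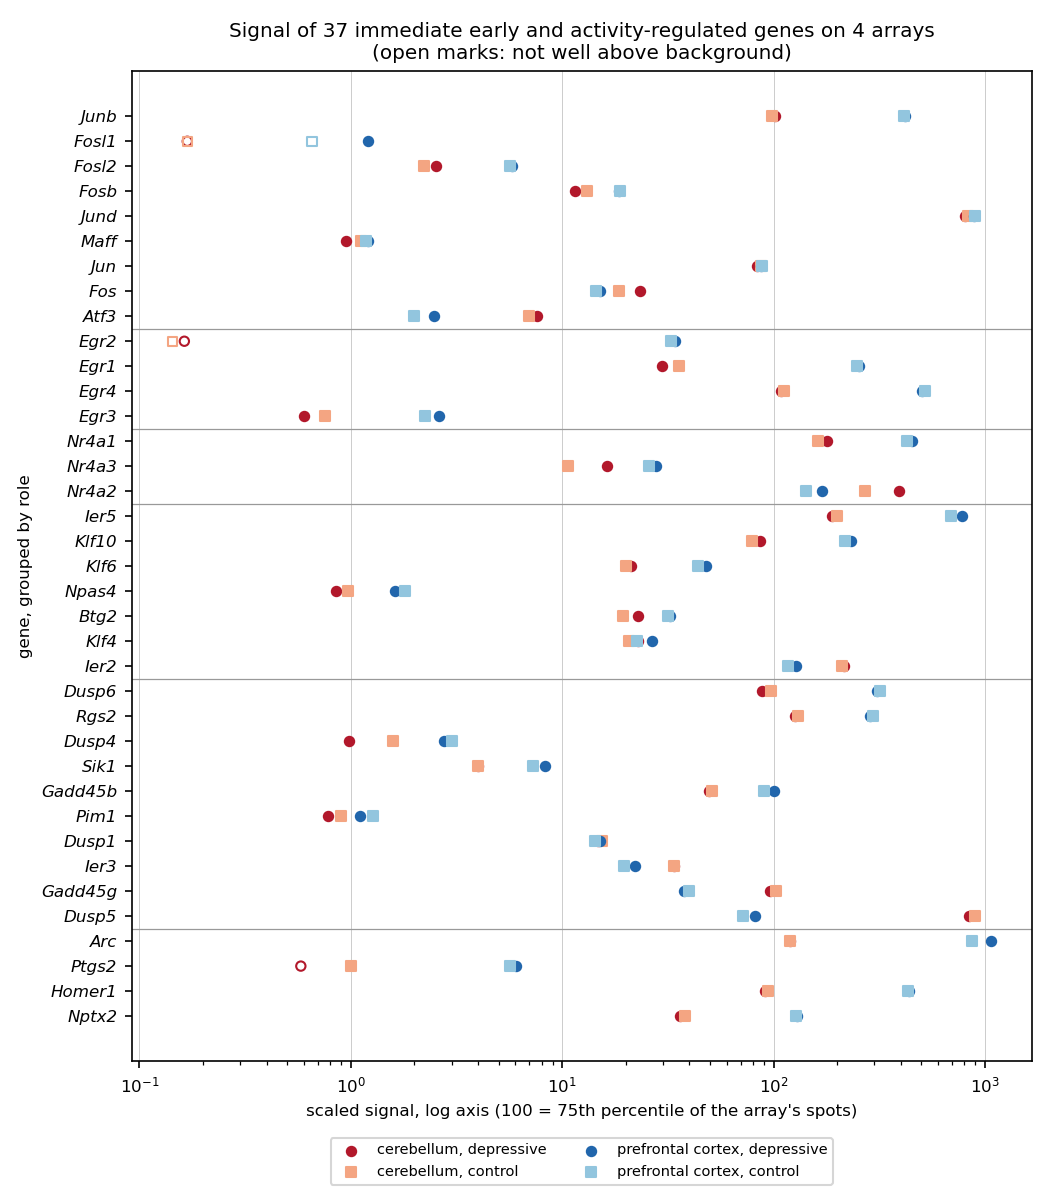
Scaled signal of each of the 37 genes on the 4 arrays, on a log axis where 100 is the 75th percentile of the array's spots, with 1 mark per array and open marks for signals not well above background. For 25 of the 34 genes above background on all arrays both cerebellum marks lie below both prefrontal cortex marks (45.3% of all genes), and for 7 both lie above (42.6%).

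Among the EGR factors, zinc finger proteins that read growth factor and synaptic signals into transcription, all 4 genes were lower in cerebellum in both states. Egr1, the family member most used as an activity marker, had a signal of 29.6 and 35.9 in depressive and control cerebellum, against 252 and 247 in depressive and control prefrontal cortex. The cerebellum lay 7.66-fold lower (log2 difference -2.94, SE of the fit 0.10, limma adjusted p = 0.000432). Egr2, known in the hindbrain of the embryo and in myelinating Schwann cells, was not well above background on either cerebellum array, with 0.163 and 0.144 in depressive and control cerebellum, against 34.3 and 32.7 in prefrontal cortex. The cerebellum lay 124-fold lower (98.5-fold in depressive and 157-fold in control pools) when its signal was set at a floor. That floor was the dimmest signal that counts as well above background on each cerebellum array, compared with the mean of the prefrontal cortex arrays. It is not a detection limit, since Ptgs2 read above it on the depressive cerebellum array and did not count as well above background. The fold is thus an estimate and not a bound. The Egr2 signals rest on 10 spots per array, which ran from 32.1 to 37.3 on the depressive and from 31.0 to 34.5 on the control prefrontal cortex array.

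Egr4 had 108 and 112 in cerebellum (depressive and control), against 502 and 518 in prefrontal cortex, 4.64-fold lower in cerebellum (adjusted p = 0.00026 in limma). Egr3 was dim, at 0.603 and 0.755 in cerebellum (depressive and control), against 2.60 and 2.25 in prefrontal cortex, and 3.59-fold lower (adjusted p = 0.00227 in limma), with a log2 difference of -1.84 that was -0.93 after normexp background correction. A second, dimmer Egr3 probe was not well above background in cerebellum and gave log2 differences of -2.91 and -2.70 in depressive and control pools, against -2.11 and -1.58 for the brighter probe. The family shared a direction, with both cerebellum arrays below both prefrontal cortex arrays for all 4 genes. Among all 11623 genes above background on all arrays, 45.3% lay below in this way and 42.6% above.

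Proteins that act at the synapse or outside the cell followed the same direction. Arc, which binds its own RNA in capsid-like shells and speeds the removal of AMPA receptors, had 120.2 and 119 in cerebellum (depressive and control), against 1069.5 and 867 in prefrontal cortex. It was 8.05-fold lower in cerebellum (log2 difference -3.01, SE of the fit 0.09, limma adjusted p = 0.000391). Homer1, a scaffold of group I metabotropic glutamate receptors whose short form is induced by activity, had 90.9 and 94.4 in cerebellum (depressive and control), against 437 and 433 in prefrontal cortex, 4.70-fold lower (limma adjusted p = 0.000271), and its probe was not assigned to the short or the long form. Nptx2, a secreted pentraxin that gathers AMPA receptors, had 35.9 and 38.1 in cerebellum (depressive and control), against 129 and 128 in prefrontal cortex and was 3.48-fold lower (limma adjusted p = 0.000391). Ptgs2, the inducible cyclooxygenase that makes prostaglandins, had 0.580 and 1.01 in cerebellum (depressive and control), against 6.04 and 5.64 in prefrontal cortex. It was not well above background in depressive cerebellum, where the observed signal lay 10.4-fold lower than in depressive prefrontal cortex. That is a log2 difference of -3.38 (SE between spots 0.44). In control pools, with both arrays above background, the log2 difference was -2.49 (SE between spots 0.22).

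The AP-1 factors are leucine zipper proteins that bind DNA as pairs of a Fos-type and a Jun-type partner. Of 8 tested with Atf3 and Maff counted in, 3 were lower in cerebellum, 2 higher and 3 not called, beside 37.8% lower and 34.7% higher over all genes. Junb, read from 1 spot per array, had 102 and 98.4 in cerebellum (depressive and control), against 419 and 413 in prefrontal cortex, 4.16-fold lower (limma adjusted p = 0.000282). Its relatives Jun, with 83.1 and 87.0 in cerebellum (depressive and control), against 87.2 and 88.3 in prefrontal cortex, and Jund, with 804 and 831 in cerebellum (depressive and control), against 892 and 899 in prefrontal cortex, were not called (limma adjusted p = 0.469 and 0.0882), and the log2 difference of Jund, -0.13, was 0.09 after quantile normalization and passed with a trend in eBayes (limma adjusted p = 0.0144, range over the alternatives 0.0144 to 0.542). Fos itself was higher in cerebellum, with 23.5 and 18.6 in cerebellum (depressive and control), against 15.0 and 14.5 in prefrontal cortex, a 1.41-fold difference (limma adjusted p = 0.0144). Fosb, with 11.5 and 13.1 in cerebellum (depressive and control), against 18.6 and 18.8 in prefrontal cortex, was 1.52-fold lower (limma adjusted p = 0.00445), and its probe was not assigned to the full-length or the truncated form.

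Fosl2 was 2.42-fold lower on its brighter probe (limma adjusted p = 0.000847), with log2 differences of -1.20 and -1.34 in depressive and control pools, but its second probe gave -0.20 and -0.14, so the size depends on the probe. Fosl1 was above background on the depressive prefrontal cortex array alone, at 1.21. Atf3, a stress-induced factor of the same class, had 7.57 and 6.98 in cerebellum (depressive and control), against 2.49 and 1.99 in prefrontal cortex and was 3.27-fold higher in cerebellum (limma adjusted p = 0.000689), a log2 difference of 1.71 that was 1.02 after normexp. Maff, a small Maf protein without an activation domain, had 0.954 and 1.12 in cerebellum (depressive and control), against 1.21 and 1.18 in prefrontal cortex and was not called (limma adjusted p = 0.11). It passed after normexp (limma adjusted p = 0.0265, range over the alternatives 0.0265 to 0.841), and its log2 difference of -0.21 was 0.01 after quantile normalization.

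The NR4A receptors, orphan nuclear receptors that are active without a ligand, also divided. Nr4a1 had 179 and 163 in cerebellum (depressive and control), against 454 and 428 in prefrontal cortex and was 2.58-fold lower in cerebellum (limma adjusted p = 0.000531). Nr4a3 had 16.4 and 10.7 in cerebellum (depressive and control), against 27.8 and 25.7 in prefrontal cortex, 2.02-fold lower (limma adjusted p = 0.00801). Nr4a2, best known for its part in making dopamine neurons, ran the other way with 391 and 271 in cerebellum (depressive and control), against 169 and 143 in prefrontal cortex, and was 2.10-fold higher in cerebellum (limma adjusted p = 0.0024). Its second probe gave log2 differences of 1.19 and 1.12 in depressive and control pools, close to the 1.21 and 0.93 of the brighter one.

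The brakes on signalling held both the gene that was most raised in cerebellum and several that were lower there. Dusp5, a nuclear phosphatase that switches off ERK kinases, had 843 and 901 in cerebellum (depressive and control), against 81.8 and 71.5 in prefrontal cortex. It was 11.4-fold higher in cerebellum (log2 difference 3.51, SE of the fit 0.09, limma adjusted p = 0.000315). Dusp6, which acts on ERK in the cytoplasm, was 3.38-fold lower, with 88.6 and 97.0 in cerebellum (depressive and control), against 309 and 318 in prefrontal cortex (limma adjusted p = 0.000402). Dusp1, which also acts on p38 and JNK kinases, had 14.7 and 15.4 in cerebellum (depressive and control), against 15.1 and 14.3 in prefrontal cortex, and its tissues overlapped (limma adjusted p = 0.694). Dusp4 was dim, with 0.981 and 1.58 in cerebellum (depressive and control), against 2.77 and 3.01 in prefrontal cortex, and 2.32-fold lower (limma adjusted p = 0.00689). The 4 phosphatases had no common direction between tissues.

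Gadd45g and Gadd45b, stress sensors linked to p38 kinase and to DNA demethylation, went opposite ways. Gadd45g had 96.5 and 103 in cerebellum (depressive and control), against 37.8 and 39.8 in prefrontal cortex, 2.57-fold higher in cerebellum (limma adjusted p = 0.000498), and Gadd45b had 49.6 and 51.3 in cerebellum (depressive and control), against 100.3 and 90.1 in prefrontal cortex, 1.88-fold lower (limma adjusted p = 0.00217). Rgs2, which speeds the shut-off of Gq proteins, was 2.26-fold lower, Sik1, a kinase that holds CREB coactivators in the cytoplasm, 1.95-fold lower, and Pim1, a survival kinase near background, 1.43-fold lower, with limma adjusted p of 0.000637, 0.00171 and 0.00313. Pim1 was read from 1 spot per array. Its SE between spots was 0.66 in depressive and 0.49 in control pools, as large as or near its log2 difference of -0.51 and far above the 0.05 SE of the fit. Ier3, a stress-induced survival factor, was 1.62-fold higher, with 33.9 and 33.7 in cerebellum (depressive and control), against 22.2 and 19.5 in prefrontal cortex (limma adjusted p = 0.00315).

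Of 7 other nuclear regulators, 5 were lower in cerebellum, 1 higher and 1 not called, beside 37.8% lower and 34.7% higher over all genes. Ier5, which acts on heat shock factor 1, had 189 and 199.8 in cerebellum (depressive and control), against 780.2 and 691 in prefrontal cortex and was 3.78-fold lower (limma adjusted p = 0.000703), and its second probe gave log2 differences of -1.95 and -1.60 in depressive and control pools. Klf10 and Klf6, zinc finger factors, were 2.72-fold and 2.23-fold lower, and Btg2, an inhibitor of proliferation, 1.52-fold lower, with limma adjusted p of 0.000462, 0.000714 and 0.00517. Npas4, a neuronal factor that answers calcium entry, lay near background in both tissues, with 0.852 and 0.970 in cerebellum (depressive and control), against 1.62 and 1.81 in prefrontal cortex, and was 1.88-fold lower (limma adjusted p = 0.000996). For Npas4 the SE between spots was 0.46 in depressive and 0.25 in control pools, far above the 0.05 SE of the fit. Ier2 was 1.74-fold higher, with 216 and 210.1 in cerebellum (depressive and control), against 127 and 117 in prefrontal cortex (limma adjusted p = 0.00146). Klf4, a factor of endothelial and epithelial cells, had 22.8 and 20.7 in cerebellum (depressive and control), against 26.5 and 22.7 in prefrontal cortex, and was not called (limma adjusted p = 0.056). It passed after normexp and with the trend (limma adjusted p = 0.0281 and 0.0439, range over the alternatives 0.0281 to 0.245).

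**Figure D2:**
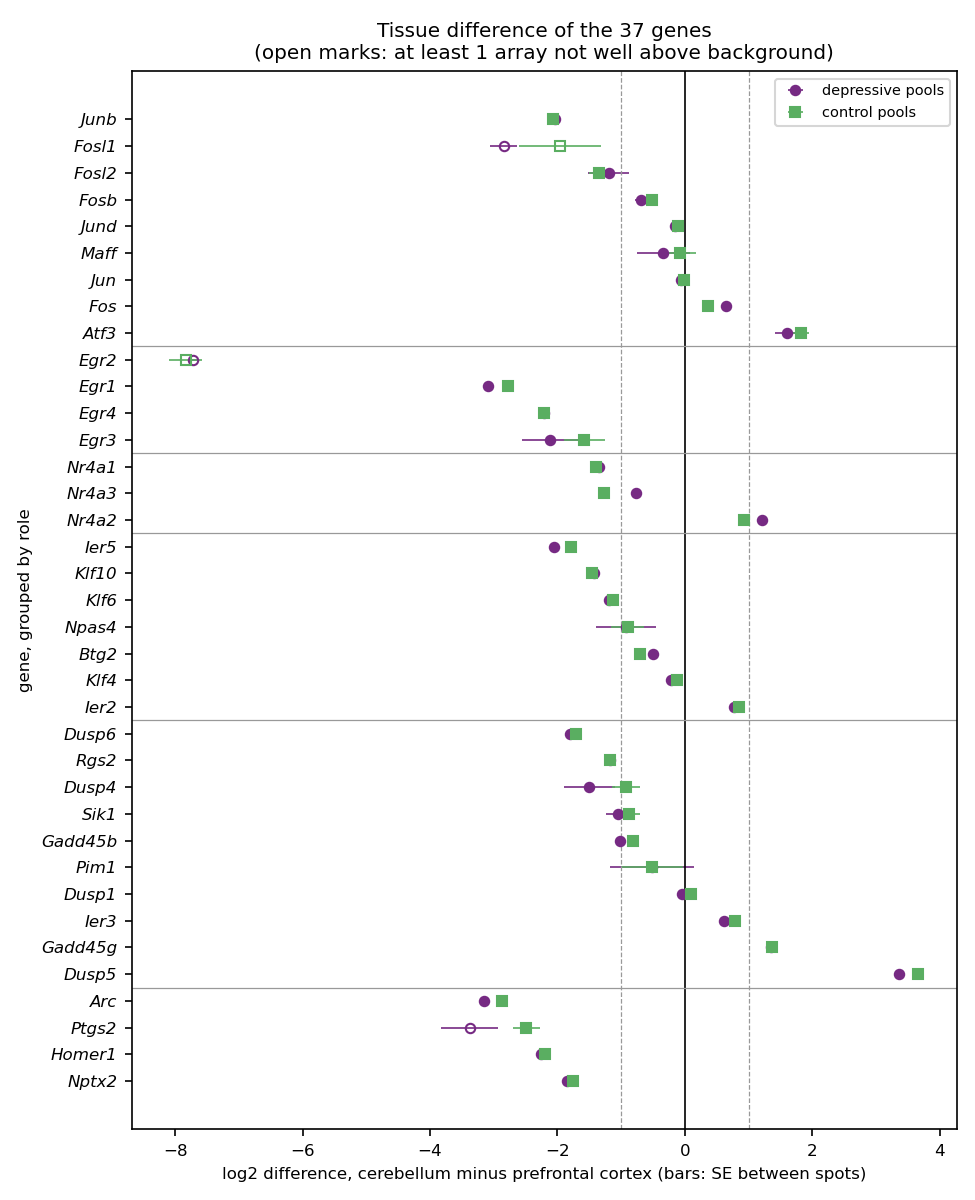
Log2 difference, cerebellum minus prefrontal cortex, of each gene in depressive (circles) and control (squares) pools, with bars for the SE between spots, open marks where an array was not well above background and dashed lines at 2-fold. The marks of the 2 states have a median gap of 0.14 over 34 genes, against 0.09 over all 11623 genes, and run from Egr2 on the left to Dusp5 on the right.

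The tissue differences of the 2 states ran close together. Across the 34 genes above background on all arrays, depressive and control pools gave a Pearson correlation of 0.988 and a Spearman correlation of 0.981, and 33 genes had the same sign. Over all 11623 genes the values were 0.977 and 0.958. The median gap between the 2 states was larger for the 34 genes, at 0.14 on the log2 scale against 0.09 over all genes. The correlation is across genes, which are not independent replicates, and the 2 differences share no array. The exception in sign was Dusp1, at -0.04 in depressive and 0.10 in control pools.

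The second comparison asked how the depressive pools differed from the control pools. No gene of the list passed the test across tissues. The 3 NR4A receptors read higher in the depressive pool of both tissues, as did 22.8% of all genes. Their log2 differences were 0.62, 0.53 and 0.14 in cerebellum and 0.11, 0.25 and 0.09 in prefrontal cortex for Nr4a3, Nr4a2 and Nr4a1. Of the 3 EGR factors measured in cerebellum, 0 were above 0 there, beside 40.0% of all genes. Egr3 read -0.32 (SE between spots 0.53), Egr1 -0.28 and Egr4 -0.05. In prefrontal cortex 3 of 4 EGR factors were above 0. Arc differed by 0.01 in cerebellum and 0.30 in prefrontal cortex, and Fos by 0.34 and 0.05. In the limma fit, where the cerebellum and prefrontal cortex serve as the 2 arrays of a state, 0 of 34 genes and 0 of all 11623 (0%) had an adjusted p under 0.05. At an unadjusted p under 0.05 there were 4 of the 34 and 870 of all genes (7.49%), Nr4a2 (log2 difference 0.39, adjusted p = 0.656) and Klf4 (0.18, adjusted p = 0.656) higher and the dim genes Npas4 (-0.17) and Pim1 (-0.20) lower, each in 2 of 2 tissues. The labels do not say whether both tissues came from the same rats, and the interaction of tissue and state leaves no residual degree of freedom and was not tested.

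In the cerebellum, most of the list differed little between states. Of 34 genes measured on both arrays 15 were above 0, with a median log2 difference of -0.05 against -0.03 over all 11860 genes measured, of which 40.0% were above 0. At 1.5-fold or more, 1 gene was higher (1.27% of all genes) and 1 lower (0.599%), and 25 lay within 0.20 on the log2 scale, as did 83.5% of all genes. The gene that was higher was Nr4a3, with 16.4 in the depressive pool, against 10.7 in the control pool. That is 1.54-fold, a log2 difference of 0.62 (SE between spots 0.09), and its 2 spots read 15.7 and 17.1 on the depressive and 10.4 and 10.9 on the control array. Nr4a2 had 391 in the depressive pool, against 271 in the control pool, 1.44-fold higher, or 0.53 (SE between spots 0.07) on the log2 scale from 1 spot. The other Nr4a2 probe, with 2 spots, gave 0.37. Nr4a1, on 10 spots, had 179 in the depressive pool, against 163 in the control pool, a log2 difference of 0.14 (SE between spots 0.02).

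Fos was 1.26-fold higher in the depressive cerebellum pool, with 23.5 in the depressive pool, against 18.6 in the control pool, a log2 difference of 0.34 (SE between spots 0.07). Its 2 spots on each array did not overlap, at 23.4 and 23.5 against 18.3 and 18.9. Btg2 had 22.9 in the depressive pool, against 19.5 in the control pool, at 0.23 (SE between spots 0.07) on the log2 scale. Other genes of the list were below 0. Egr1 was lower, with 29.6 in the depressive pool, against 35.9 in the control pool and a log2 difference of -0.28 (SE between spots 0.06), as were Fosb, with 11.5 in the depressive pool, against 13.1 in the control pool and a log2 difference of -0.19 (SE between spots 0.08), and Dusp6, with 88.6 in the depressive pool, against 97.0 in the control pool and a log2 difference of -0.13 (SE between spots 0.02). Arc, with 120.2 in the depressive pool, against 119 in the control pool, differed by 0.01 (SE between spots 0.02), and Homer1 by -0.06 (SE between spots 0.03).

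Dusp4 was the gene at 1.5-fold lower, with 0.981 in the depressive pool, against 1.58 in the control pool, 1.61-fold or -0.69 (SE between spots 0.43) on the log2 scale. Its signal is near background, the SE between spots at that brightness is large, and after normexp background correction its log2 difference was -0.27. Nr4a3 kept 0.56 after normexp, just under 1.5-fold. Ptgs2 lay at 0.580, not well above background, in the depressive pool, against 1.01 in the control pool. The observed signal was 1.74-fold lower, with an SE between spots of 0.47 on the log2 scale. The 7 genes above background that are printed 10 times on the array (7 to 10 spots usable) ran from -0.13 (Dusp6) to 0.14 (Nr4a1) with an SE between spots of 0.03 or less, and besides these 2 were Arc, Ier2, Ier3, Dusp5 and Homer1.

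In the prefrontal cortex, 26 of 36 measured genes were above 0, with a median log2 difference of 0.06 against -0.01 over all 12214 genes measured, of which 48.2% were above 0. At 1.5-fold or more there were 0 genes higher (0.982% of all genes) and 0 lower (0.573%), and 30 lay within 0.20, as did 86.4% of all genes. Arc had 1069.5 in the depressive pool, against 867 in the control pool, 1.23-fold higher with a log2 difference of 0.30 (SE between spots 0.02), and its spots, 9 or 10 per array, ran from 1036.7 to 1092 on the depressive and from 849 to 886 on the control array. Atf3 had 2.49 in the depressive pool, against 1.99 in the control pool, a log2 difference of 0.33 (SE between spots 0.17). Nr4a2 had 169 in the depressive pool, against 143 in the control pool, a difference of 0.25 (SE between spots 0.07), and its other probe gave 0.30. Klf4 had 26.5 in the depressive pool, against 22.7 in the control pool, a difference of 0.23 (SE between spots 0.07).

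Dusp5, with 81.8 in the depressive pool, against 71.5 in the control pool, and Ier3, with 22.2 in the depressive pool, against 19.5 in the control pool, were 1.14-fold and 1.13-fold higher in the depressive prefrontal cortex pool, both on 9 or 10 spots. Ier5 was 1.13-fold and Gadd45b 1.11-fold higher. The synaptic genes other than Arc differed little, at 0.01 for Homer1 and 0.01 for Nptx2 on the log2 scale. The EGR factors lay between -0.04 (Egr4) and 0.21 (Egr3, SE between spots 0.17), with Egr1 at 0.03 and Egr2 at 0.07, and Fos at 0.05. The dimmer Egr3 probe, above background on both prefrontal cortex arrays, gave -0.06, so the sign for Egr3 depends on the probe. Fosl1 read 1.21 in the depressive pool, against 0.655, not well above background, in the control pool. The observed signal was 1.85-fold higher, and the log2 difference of 0.89 (SE between spots 0.32) shrank to 0.22 after normexp.

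**Figure D3:**
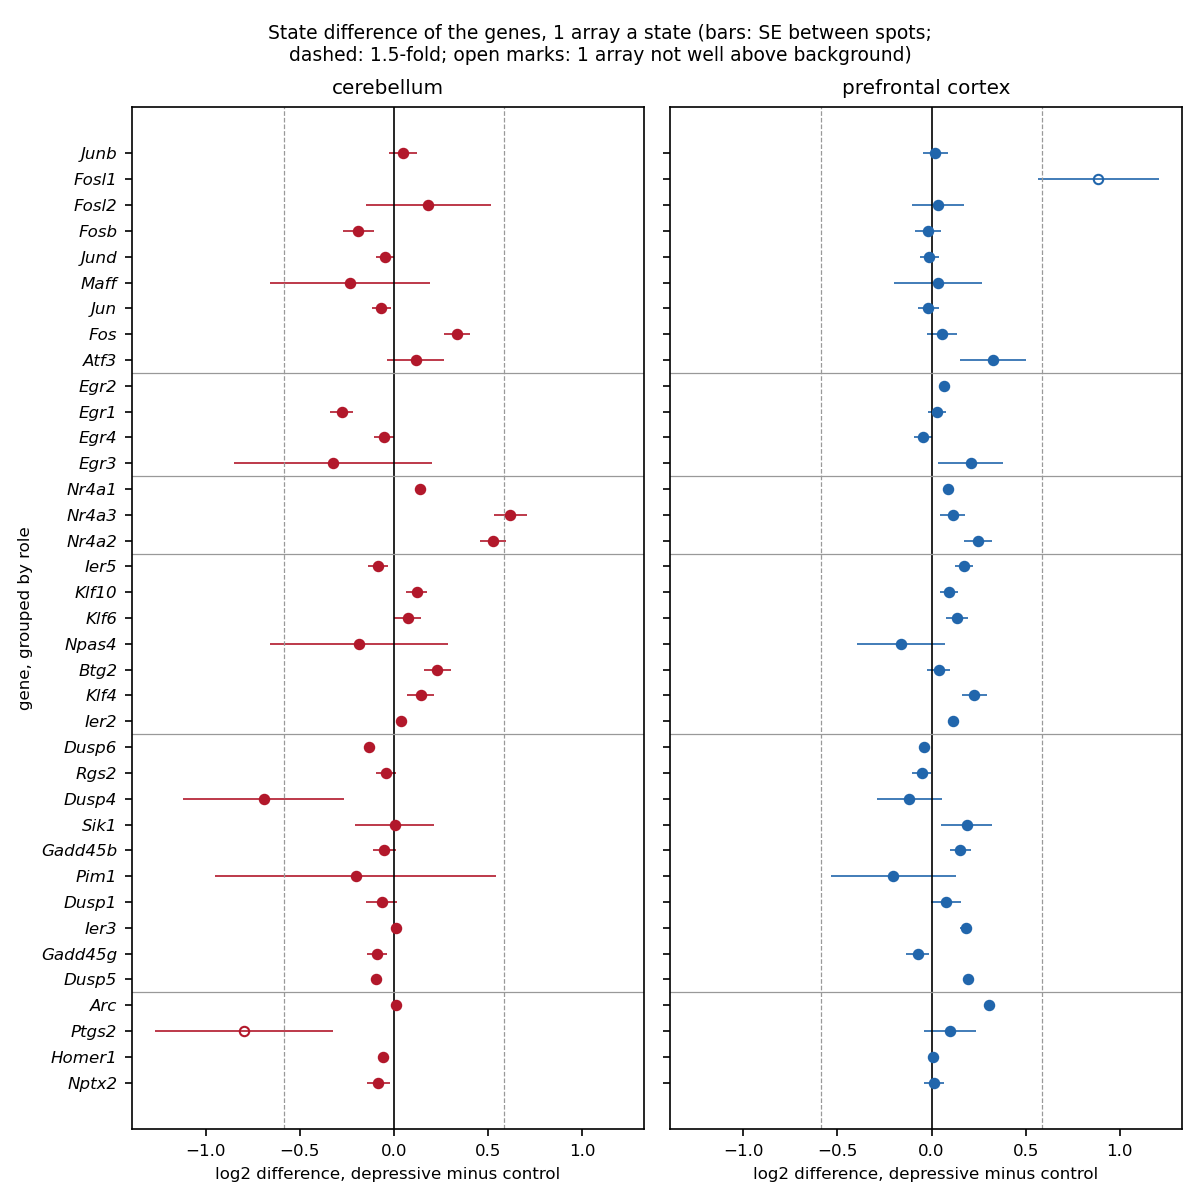
Log2 difference, depressive minus control, of each gene in cerebellum (left) and prefrontal cortex (right), with bars for the SE between spots, dashed lines at 1.5-fold and open marks where 1 of the 2 arrays was not well above background. Nr4a3 and Nr4a2 stand out to the right and Dusp4 and Ptgs2 to the left in cerebellum, and the long bars belong to dim genes.

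Between tissues, 15 of the 34 genes were above 0 in both (22.8% of all genes), 10 were below 0 in both (34.6%) and 9 had opposite signs. Across the 34 genes the state differences of the 2 tissues had a Pearson correlation of 0.425 and a Spearman correlation of 0.471, against 0.201 and 0.184 over all 11623 genes, and they share no array. As a description across genes this carries no test. Genes above 0 in both tissues included Nr4a1, Nr4a2, Nr4a3, Fos, Atf3, Btg2, Klf4, Klf6, Klf10 and Junb, and those below 0 in both included Jun, Jund, Fosb, Egr4, Dusp4, Dusp6, Gadd45g, Rgs2, Npas4 and Pim1.

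**Figure D4:**
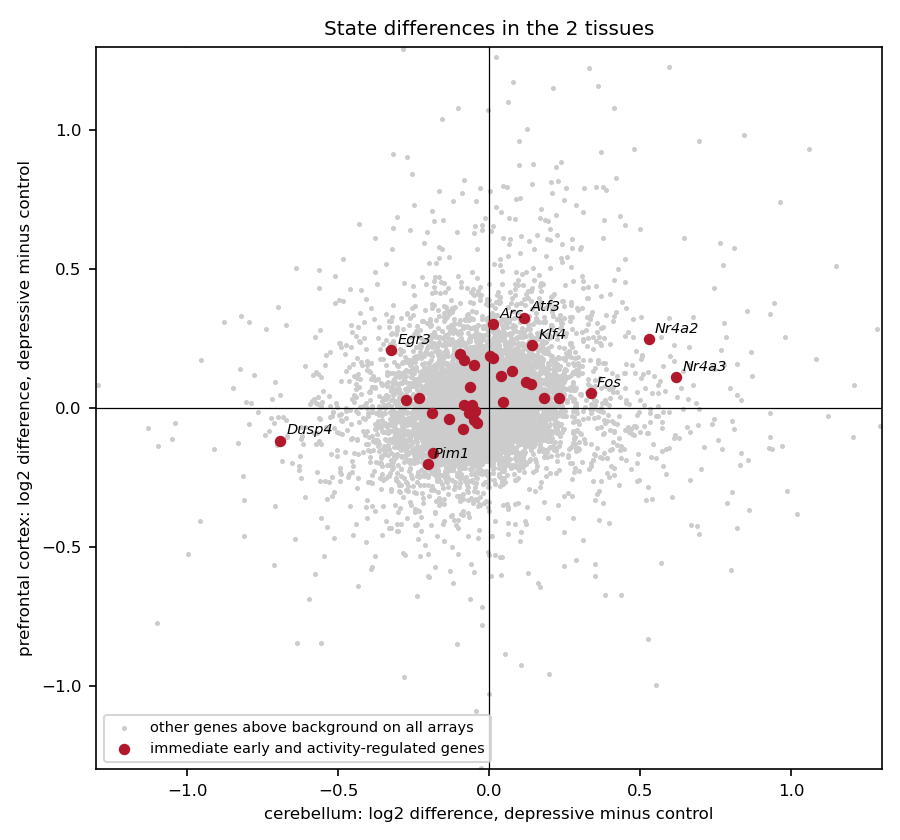
Log2 difference, depressive minus control, in cerebellum (x axis) against prefrontal cortex (y axis), for 34 genes of the list (red) and the other genes above background on all arrays (grey), with 35 of all 11623 genes outside the axes. Most red points lie near the origin, with Nr4a3 and Nr4a2 to the right, Dusp4 to the left and Arc and Atf3 above.

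The labels state that the rats were perfused with saline through the heart. Marker sums of other cells differed between states on the same arrays. The 9 red blood cell genes measured summed to 1362 in depressive against 299.7 in control cerebellum and to 2188 against 549 in prefrontal cortex, with Hba-a1, Hbb and Hbb-b1 the brightest. In the prefrontal cortex, 12 meningeal fibroblast genes, led by Ptgds, Igf2 and Col1a2, summed to 4085 in the depressive and 2093 in the control pool, with 12 of 12 higher, and 11 choroid plexus genes, led by Ttr, Enpp2 and Kcnj13, to 343 and 965. Of these last, Ttr read 186 in the depressive and 821 in the control prefrontal cortex pool, while Enpp2 read 140.3 and 129 and Kcnj13 6.56 and 4.39. In cerebellum, where Ttr makes up most of the choroid plexus sum (18542 and 18576), 10 of the 11 genes were higher in the depressive pool, with a median log2 difference of 0.59, on the arrays that gave the higher Nr4a3, Nr4a2 and Fos signals. Also in cerebellum, 7 pituitary genes summed to 38.4 and 70.1. Pomc, Lhb and Fshb, the brightest by mean log2 signal over the 4 arrays, differed little between states (Pomc 25.7 and 27.8), and the other 4 summed to 0.648 and 30.7. Several genes of the list, such as Klf4, Atf3, Ier3 and Fos, are also known in blood vessel and connective tissue cells, and the part of these cells in the state differences was not tested. The sums of 12 endothelial and mural genes were 649.5 and 653 in depressive and control cerebellum and 798 and 752 in prefrontal cortex, and those of 12 microglia genes 1656 and 1576 and 3105 and 3232. Of 10 oligodendrocyte genes, 10 were higher in the depressive pool in prefrontal cortex (median log2 difference 0.33) and 4 in cerebellum (-0.04). Of 12 cerebellar neuron genes, 0 were higher in the depressive cerebellum pool (median log2 difference -0.12), where 40.0% of all genes were above 0. Of 12 cortical neuron genes, 5 were higher in the depressive prefrontal cortex pool (-0.02). The part of oligodendrocytes and of neurons was not tested either.

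The machinery upstream of these genes, kinases, calcium channels and the factors CREB, SRF and MEF2 with their partners, was measured for 25 of 33 listed genes. In cerebellum 15 were lower (37.8% of all genes), 6 higher (34.7%) and 4 not called in limma, with a median log2 difference of -0.32 against -0.02 over all genes. Camk2a, the calmodulin kinase of excitatory forebrain synapses, had 1.89 and 1.98 in cerebellum (depressive and control), against 79.8 and 81.7 in prefrontal cortex, 41.8-fold lower (limma adjusted p = 0.000175). Rps6ka2, a ribosomal S6 kinase downstream of ERK, was 2.90-fold lower, while its relative Rps6ka1 was 11.5-fold higher, with 1418 and 1464 in cerebellum (depressive and control), against 123 and 127 in prefrontal cortex (limma adjusted p = 0.000189). The calcineurin subunits Ppp3r1 and Ppp3cb were 1.98-fold and 1.95-fold lower. Camk4, a nuclear calmodulin kinase that acts on CREB, was 1.65-fold higher. Atf1, a factor of the CREB family, and the CREB coactivator Crtc2 were higher by log2 differences of 0.59 and 0.36. Between states 0 of 25 were called, and the largest differences were -0.26 for Crebbp and -0.21 for Ppp3r1 in cerebellum, and 0.23 for Creb1 and -0.16 for Elk1 in prefrontal cortex, on the log2 scale.

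Of 35 later or further targets of activity 33 were on the array and 30 tested, with 18 lower in cerebellum (37.8% of all genes), 9 higher (34.7%) and 3 not called in limma and a median log2 difference of -0.40 against -0.02 over all genes. Pcdh8, an adhesion protein that takes part in removing synaptic cadherin, was 99.8-fold lower, with 0.814 and 0.688 in cerebellum (depressive and control), against 74.1 and 75.2 in prefrontal cortex (limma adjusted p = 0.000175). Its cerebellum signal was near background, so the fold is an estimate (SE between spots 0.44 in depressive and 0.30 in control pools, on the log2 scale). Plk2, a kinase that weakens active synapses, was 16.7-fold lower, the secreted neuropeptide precursor Vgf 8.61-fold and the prohormone convertase Pcsk1 6.51-fold lower. Rem2, a small GTPase that acts on calcium channels, was 2.44-fold higher, the repressor Nfil3 2.31-fold, the receptor inhibitor Errfi1 1.91-fold and Amigo3 1.46-fold higher. Amigo3 was near background, with log2 differences of 0.34 (SE between spots 0.50) in depressive and 0.75 (SE between spots 0.33) in control pools. Between states 0 of 30 were called. Among genes above background on both arrays of a tissue, the largest differences in cerebellum were -0.36 (SE between spots 0.21) for Arl4d and -0.32 (SE between spots 0.43) for Amigo3. In prefrontal cortex they were -0.51 (SE between spots 0.58) for Zfp36 and 0.37 (SE between spots 0.24) for Midn, both near background and left out of the 30. Zfp36 was not above background on both cerebellum arrays and read -0.59 there.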

How the data were processed

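Per the labels' protocols, tissue slices 1 mm thick were taken 1 week after the swimming test, and 400 ng of RNA pooled in equal amounts from 4 rats was labelled with Cy3. Per the file headers, scans were read with version 10.7.1.1 of Agilent's Feature Extraction software (protocol GE1_107_Sep09, design build rn4), and the deposited intensity is background-subtracted within the array. The deposited value table holds the same intensity divided by 1 number per array; the sources used here do not say how it was chosen. Each sample was read from the scanner file that its value-table column matched, as decided once the data had been examined.

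Control spots and outlier flags were left out, spots of 1 probe were averaged as log2 intensity, and the 75th percentile of each array's spots (4364.8, 4009, 3274 and 3119 for depressive and control cerebellum and depressive and control prefrontal cortex) was subtracted. Of 30367 probes, 18355 were named through RefSeq accessions (GRCr8), giving 15443 genes, and the brightest probe stood for a gene. The software's flag on at least 50% of the spots of any of its probes put a gene well above background. Saturated named probes numbered 0. The number of arrays, 1 per group, limits the precision. The SE between spots pools probes of like brightness in 20 bins per array. limma 3.58.1 (R 4.3.3) fitted tissue and state over 11623 genes above background on all arrays, with Benjamini-Hochberg adjustment. The code was run on simulated arrays in which all genes had the same spread. Spread differs between genes in the real arrays, so that run does not show how reliable the calls are.

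The genes and lists were chosen with earlier results of these data known, and the named genes of other lists are the 4 with the largest called tissue difference in each direction and the 2 with the largest state difference in each tissue. Of marker lists whose sum moved 1.5-fold or more with state, the 3 brightest were named. Alternatives were normexp (offset 50, on median spot signals in place of the planned mean signals), quantile normalization, median scaling, the value table, the mean over probes, a wider background filter, other limma models and files as linked.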

Additional observations from a re-analysis of the deposited data

Results flagged for a closer look

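Ptgs2, the inducible cyclooxygenase, had state differences of opposite sign in the 2 tissues. It read lower in the depressive cerebellum pool, at a log2 difference of -0.80 (SE between spots 0.47), where the depressive array was not well above background, and 0.10 (SE between spots 0.14) in prefrontal cortex. With 1 array per state in each tissue the difference between tissues was not tested.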

How the results depend on the processing

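Files as linked apart, counts of calls between tissues and between states for the 37 genes and the other lists stayed within 1.5 times of those reported under normexp, quantile, median scaling, the deposited value table, the mean over probes, the wider background filter, no block and a trend in eBayes. Reading the scanner files as linked to their samples exchanges both differences: the genes called between tissues then numbered 0 (upstream list 0, later targets 0, paralogs 0) and between states 29 (21, 27 and 27), genes past 1.5-fold between states 27 in cerebellum and 27 in prefrontal cortex, and the medians were 0.90 and 0.97 for state in cerebellum and prefrontal cortex and -0.062 and 0.048 for tissue in depressive and control pools, the last a reversal. The 2 genes past 1.5-fold in cerebellum became 0 after normexp (Nr4a3 0.56 in place of 0.62, Dusp4 -0.27 in place of -0.69), 1 after quantile normalization and 0 at 2-fold, and the 0 in prefrontal cortex became 1, Fosl1, with the wider filter. Averaged over tissues 0 genes reached 1.5-fold, and 2 did without the prefrontal cortex arrays.

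The tissue median moved from -0.97 in depressive pools to -0.75 with normexp, -0.79 with quantile normalization, -0.85 with median scaling, -0.84 with the mean over probes and -1.06 with the wider filter, and from -0.90 in control pools to -0.70 with normexp, -0.80 with quantile normalization, -0.84 with median scaling and -0.83 in the value table. Quantile normalization and median scaling raised the median of all genes between tissues in depressive pools by 0.12. Jund, at -0.13 between tissues and not called, was 0.085 after quantile normalization and again not called. Among the 34 genes tested, alternatives called 3 that the reported fit did not: Jund with the trend, Klf4 with normexp and the trend, and Maff with normexp. The wider filter tested all 37 genes and called 7 higher and 25 lower. Its further calls were Egr2, Ptgs2 and Fosl1, which the reported fit left out and which miss background on 1 array or more. Normexp lowered the tissue differences of Egr3 and Atf3 by over 1.5-fold. Over all genes limma called 5 between states after normexp and 21 with the trend, 0 of them among the 34. The cause of these changes was not tested. No paired analysis was possible because the labels number no replicates. The reported fit already holds the other factor as a block, and without it 29 genes were called between tissues and 0 between states. Signals near background, those of Fosl1, Ptgs2, Egr3, Atf3, Dusp4, Npas4, Maff and Pim1, limit what can be read from their differences. In the other lists the same holds for Amigo3, Zfp36, Midn and the cerebellum signals of Pcdh8 and Npas1.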

Other observations

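The paralogs of the listed genes, relatives that are mostly not immediate early genes, formed another list. Of 36 listed, 31 were on the array and 29 tested, with 16 lower in cerebellum (37.8% of all genes), 11 higher (34.7%) and 2 not called in limma, and a median log2 difference of -0.40 against -0.02 over all genes. Homer3 was 12.4-fold higher in cerebellum, with 34.6 and 42.3 in cerebellum (depressive and control), against 2.97 and 3.20 in prefrontal cortex (limma adjusted p = 0.000236), opposite to Homer1. Btg1 was 11.1-fold higher, with 2241 and 1979 in cerebellum (depressive and control), against 181 and 200.5 in prefrontal cortex (limma adjusted p = 0.00036), opposite to Btg2. Dusp10 and Klf13 were 3.27-fold and 2.05-fold higher. Npas1, a factor of inhibitory neurons, was 21.3-fold lower, Npas2, a clock factor, 12.9-fold, Ier5l 11.9-fold and Klf16 6.47-fold lower. The Npas1 signal in cerebellum was dim, at 1.34 and 1.45 in depressive and control pools, so its fold is an estimate.

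Between states 0 of 29 paralogs were called. Nptxr, the membrane receptor form of the neuronal pentraxins, read 169 in the depressive and 212 in the control cerebellum pool, and 787 and 906 in prefrontal cortex, log2 differences of -0.32 (SE between spots 0.05) and -0.20 (SE between spots 0.05), with limma adjusted p = 0.656. In cerebellum Klf5 and Atf2 differed by 0.38 (SE between spots 0.16) and 0.33 (SE between spots 0.12), and in prefrontal cortex Klf2 by 0.23 (SE between spots 0.09).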
